A study of Mus musculus with 4 samples.

Results

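The endoplasmic reticulum stress and folding genes described here are 10 named genes: Hspa5, Hsp90b1, Xbp1, Ddit3, Atf4, Creld2, Pdia4, Pdia6, Dnajb9 and Sdf2l1. Their probes were found by accession, as every gene probe whose transcript accession belongs to 1 of these symbols, which gave 15 of the 41174 distinct gene probes on the array. Colonic mucosa of C57BL/6 mice at 90 postnatal days (P90) was compared with that of mice at 30 postnatal days (P30) on 4 two-colour arrays, whose labels end in a, b, e and k. Each array carried the RNA of a P90 animal and of a P30 animal in opposite dyes, with P90 in Cy3 on a, b and k and in Cy5 on e. The labels give no treatment, genotype or sex, and do not say whether an animal was used more than once. The p-values below therefore speak for these 4 pairs only. They set a gene's mean against the spread of its pairs, moderated by that of all genes. How far the pairs differ may be technical in part. In mucosa scraped from the colon, as in any bulk sample, fewer cells of a type and less RNA per cell cannot be told apart.

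The endoplasmic reticulum is where secreted and membrane proteins are folded. When unfolded proteins accumulate there, the sensors IRE1, PERK and ATF6 start the unfolded protein response: IRE1 splices the transcript of the transcription factor Xbp1, PERK slows translation and favours that of Atf4, and ATF6 is cut into an active factor. Their targets are chaperones, disulfide isomerases and degradation factors, and under lasting stress the factor CHOP, encoded by Ddit3. In the colon, the cells with the heaviest secretory load are goblet cells and the plasma cells of the lamina propria.

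The promoters that carry the best known response element are shown first, because 4 of the 10 genes hold it and their ratios between the ages were unlike. The element, ERSE, reads CCAAT, 9 further bases and CCACG, and binds NF-Y together with ATF6. Windows from 250 bases before to 50 bases after the annotated start were taken from RefSeq (build GRCm38.p6), in which all 10 genes were matched. ERSE was found on either strand in the windows of Hspa5 (chr2:34771840-34772139, plus strand), Hsp90b1 (chr10:86705395-86705694, minus strand), Creld2 (chr15:88819396-88819695, plus strand) and Pdia6 (chr12:17266339-17266638, plus strand), and in 0.119% of all 32851 windows. Each is written 5' to 3' on the strand of its gene, with the fixed letters of each match in capitals; CGTGG and ATTGG are the same element read on the other strand.
Hspa5: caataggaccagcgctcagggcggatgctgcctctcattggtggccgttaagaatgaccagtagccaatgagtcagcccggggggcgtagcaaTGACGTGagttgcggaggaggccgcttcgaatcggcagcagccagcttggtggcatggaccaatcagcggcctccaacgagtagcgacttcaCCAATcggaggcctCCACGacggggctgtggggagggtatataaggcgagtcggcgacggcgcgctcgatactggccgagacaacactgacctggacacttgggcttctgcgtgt
Hsp90b1: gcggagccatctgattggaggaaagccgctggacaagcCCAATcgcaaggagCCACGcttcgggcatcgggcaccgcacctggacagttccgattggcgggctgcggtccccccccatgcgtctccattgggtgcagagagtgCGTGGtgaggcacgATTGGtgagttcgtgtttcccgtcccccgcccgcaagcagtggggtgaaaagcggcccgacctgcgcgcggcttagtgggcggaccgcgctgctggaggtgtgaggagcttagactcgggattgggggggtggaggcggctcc
Creld2: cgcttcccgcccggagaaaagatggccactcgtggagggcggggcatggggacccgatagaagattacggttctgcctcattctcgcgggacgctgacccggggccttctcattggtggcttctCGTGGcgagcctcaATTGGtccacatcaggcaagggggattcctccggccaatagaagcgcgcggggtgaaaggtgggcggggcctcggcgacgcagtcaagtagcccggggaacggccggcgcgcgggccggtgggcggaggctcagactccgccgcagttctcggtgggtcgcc
Pdia6: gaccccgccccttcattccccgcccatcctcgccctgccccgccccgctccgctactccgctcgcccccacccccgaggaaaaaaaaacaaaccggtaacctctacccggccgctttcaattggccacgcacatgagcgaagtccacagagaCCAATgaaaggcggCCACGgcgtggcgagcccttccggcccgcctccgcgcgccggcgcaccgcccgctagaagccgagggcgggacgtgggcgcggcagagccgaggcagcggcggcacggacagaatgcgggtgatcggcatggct

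Hsp90b1 held 2 matches, at bases -212 to -194 and, on the opposite strand, at -107 to -89. In Hspa5 the match lay at -65 to -47, in Creld2 at -126 to -108 on the opposite strand, and in Pdia6 at -98 to -80. The letters TGACGTG, the core of the UPRE bound by XBP1 and ATF6, were found in Hspa5 at -157 to -151, also in capitals above, and in 2.01% of all windows. ERSE-II (ATTGG, 1 base, CCACG; 0.0365% of windows) and the letters TGATG, 1 base, AA of the composite element bound by ATF4 and C/EBP factors (3.97% of windows) were in none of the 10 windows. No match overlapped another. These are exact matches of letters, and a window without them may hold looser copies or elements farther away.

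**Figure D1:**
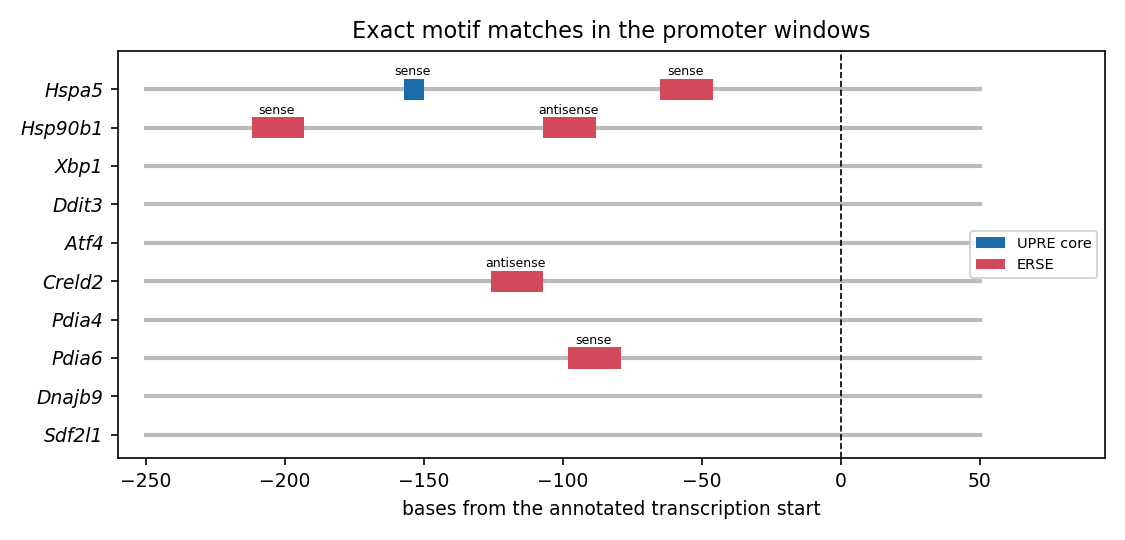
Positions of exact motif matches in the promoter windows of the 10 genes, in bases from the annotated transcription start. Red boxes are ERSE and the blue box is the UPRE core; 4 genes hold an ERSE, and Hsp90b1 holds 2.

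None of the 10 genes passed the test between the ages, and neither did any gene on the array. The test was limma's on the log2 P90/P30 of each gene over the 4 arrays, adjusted by Benjamini-Hochberg for 20834 genes and transcripts, of which 0% were called (smallest adjusted p = 0.617). A fit of all 27065 kept probes also called 0%. At an unadjusted limma p below 0.05 there were 7.9% of all genes and 0 of the 10. A gene is represented by its brightest probe, and a positive log2 P90/P30 means a higher level at P90. Of the 10 genes 5 had a mean above 0 and 5 below, but with median centring in place of loess Ddit3, Atf4, Creld2 and Pdia4 were below 0 as well, in a setting that put the median of all genes at -0.21. Their median log2 P90/P30 was -0.0087, against -0.020 over all genes tested. All 15 probes were well above background in both channels on all 4 arrays, and none was saturated in any channel.

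Before normalization the P90 channel was the dimmer one on a and k. The median gene spot was 72 at P90 against 142.5 at P30 on a, and 78 against 118 on k. It was 114 at both ages on b, and 109.5 against 100 on e. Raw spot log2 ratios on a ran from -3.03 (Hspa5) to -1.20 (Creld2), so values above 0 on that array rest on normalization. The deposited log ratios, which are dye-scaled and did not pass through the loess used here, ran from -1.23 (Hspa5) to 0.65 (Creld2) on a. They were below 0 on a only for Hspa5, Hsp90b1 and Dnajb9. After loess the array medians of the 10 genes were -0.058, 0.021, -0.22 and 0.41 on a, b, e and k. On single arrays the genes were spread from -1.68 (Hspa5) to 0.36 (Ddit3) on a, from -0.69 (Sdf2l1) to 0.77 (Dnajb9) on b, from -1.60 (Hspa5) to 0.47 (Creld2) on e, and from -1.03 (Dnajb9) to 1.09 (Xbp1) on k. The SD over the 10 genes was 0.70 (a), 0.53 (b), 0.69 (e) and 0.64 (k), beside 0.65, 0.53, 0.54 and 0.50 over all genes. Hspa5, Hsp90b1 and Dnajb9 were below 0 on a, e and k and above 0 on b, a combination seen in 19.1% of all genes. Ddit3 and Creld2 had the reverse combination, seen in 14.3% of all genes. After loess no member had the same sign on all 4 arrays, where 6.14% of all genes were above 0 and 7.98% below 0 on all of them. Some of these signs depend on the processing. In the deposited value table of the series Xbp1 was above 0 on all 4 arrays (0.37, 0.40, 0.040 and 1.30 on a, b, e and k). There Pdia4 and Sdf2l1 also had the combination of Ddit3 and Creld2.

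Array b stood apart in the whole data set and not in these genes alone. Across all 41174 probes, which are not independent replicates, its log2 P90/P30 correlated negatively with that of a (Pearson r = -0.303), e (r = -0.269) and k (r = -0.172), while a, e and k correlated with each other (r = 0.303 to 0.582). Whether the dyes of array b were exchanged was not tested. The labels state them for every array and the animals could differ, so the direction was kept as labelled, and every mean and sign combination here rests on it. With array b turned the means were -1.08 for Hspa5, -0.73 for Hsp90b1, -1.01 for Dnajb9, 0.11 for Xbp1, 0.34 for Ddit3, 0.39 for Creld2 and 0.30 for Sdf2l1, while Atf4 (0.083), Pdia4 (0.082) and Pdia6 (-0.086) stayed within 0.1 of 0. Values without array b follow with each member. Array b was singled out because it disagreed, so the arrays left agree in part by selection. Without it 4654 of 20834 genes had an unadjusted limma p below 0.05, against 1646 with array b kept, and none was called. Adjusted p-values without array b are therefore no separate evidence of a difference between the ages, for any member.

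**Figure D2:**
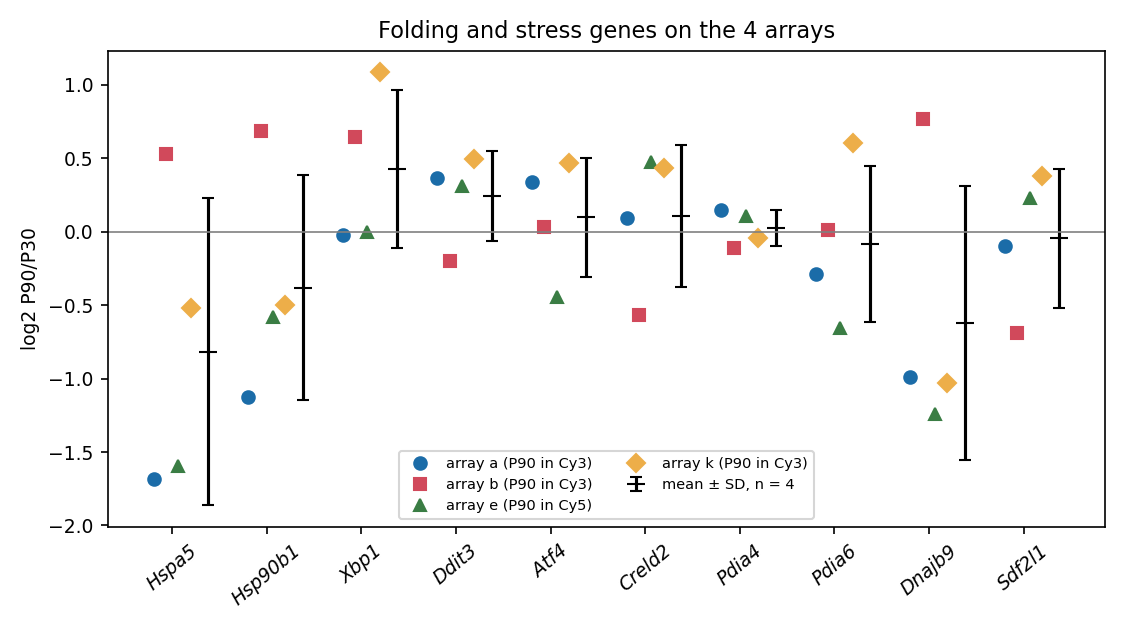
log2 P90/P30 of the 10 genes on each of the 4 arrays, with the mean and SD (n = 4) at the right of each gene. Hspa5, Hsp90b1 and Dnajb9 lie below 0 on arrays a, e and k and above 0 on b, whereas Pdia4 after loess stays within 0.15 of 0 on every array.

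Hspa5 encodes BiP, the main Hsp70 chaperone of the endoplasmic reticulum, which also holds the stress sensors inactive. Its normalized signals in the P90 channel were 6391, 16098, 6556 and 4072 on a, b, e and k, against 20518, 11129, 19838 and 5832 in the P30 channel. The level was lower at P90 on a, e and k and higher on b, and the ranges of the ages overlapped. The log2 P90/P30 was -1.68, 0.53, -1.60 and -0.52 on a, b, e and k. Its mean was the lowest of the 10 genes, at -0.82 ± 1.04 (SD, n = 4), or 0.568-fold, with a 95% interval of -1.79 to 0.16 (limma adjusted p = 0.628). Without array b the mean was -1.27 (limma adjusted p = 0.101). The deposited value table of the series gave -1.23, 0.21, -1.42 and -0.30 for arrays a, b, e and k.

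The cochaperone gene Dnajb9, whose J-domain protein works with BiP and whose expression depends on XBP1, was alike on the arrays other than b. Signals of its brightest probe were 1187, 1554, 652 and 535 at P90 on arrays a, b, e and k, against 2360, 913, 1540 and 1092 at P30. Its log2 P90/P30 was -0.99, 0.77, -1.24 and -1.03 on a, b, e and k, so that b alone had the opposite sign. The mean was -0.62 ± 0.93 (SD, n = 4), or 0.649-fold, with an interval of -1.51 to 0.26 (limma adjusted p = 0.671). Without array b it was -1.09 (limma adjusted p = 0.0803, unadjusted p = 0.000427), in a fit of 3 arrays that put 4654 genes at an unadjusted p below 0.05 and called none. The other two probes of Dnajb9 had means of -0.47 ± 0.84 and -0.34 ± 0.73 and the same sign as the first on every array.

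Hsp90b1, the Hsp90 chaperone of the endoplasmic reticulum, had signals at P90 of 9943, 12344, 9236 and 4932 on a, b, e and k, against 21726, 7656, 13840 and 6980 at P30. Its log2 P90/P30 was -1.13, 0.69, -0.58 and -0.50 on a, b, e and k. The mean was -0.38 ± 0.77 (SD, n = 4; limma adjusted p = 0.767), and -0.74 without array b (limma adjusted p = 0.111). Its second, dimmer probe did not follow the first: it gave -2.29, -0.39, 0.038 and -0.73 on a, b, e and k, with a mean of -0.84 ± 1.02. The probes differed by up to 1.16 on a single array, and they took opposite signs on b and e. Only arrays a and k were below 0 with both.

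**Figure D3:**
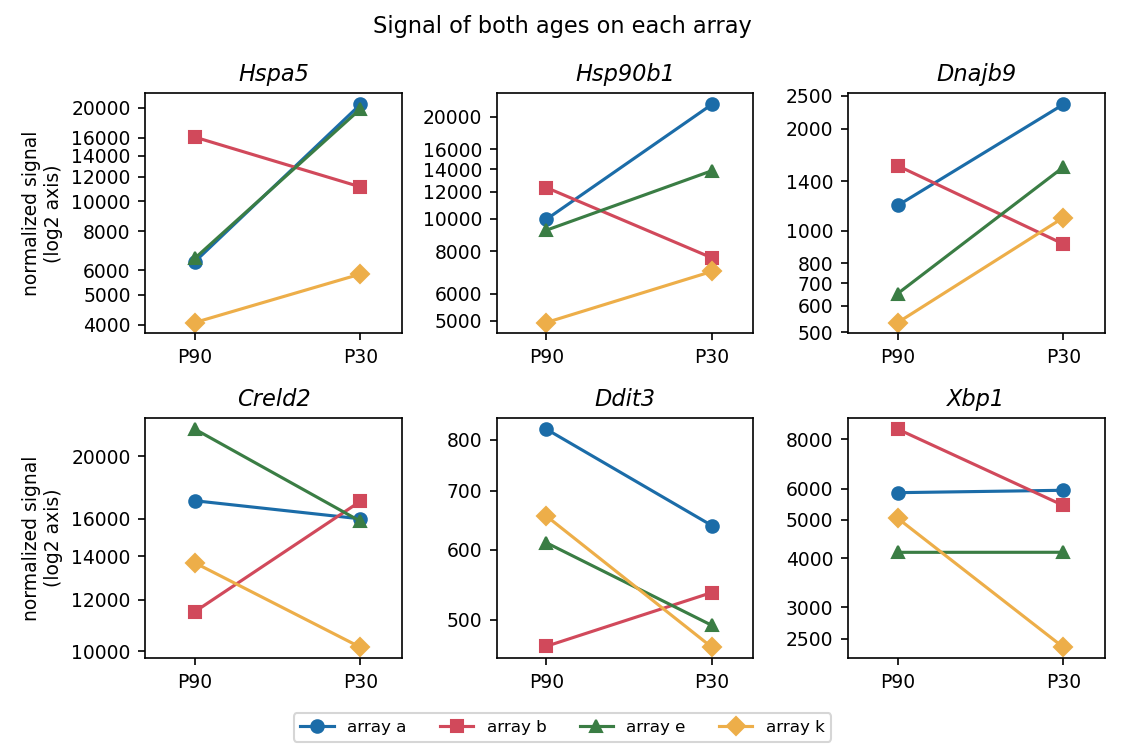
Normalized signal (arbitrary units, log2 axis) of the P90 and P30 channel for 6 genes, with a line for each array. For Hspa5, Hsp90b1 and Dnajb9 the lines of a, e and k go up towards P30 and that of b goes down; for Creld2 and Ddit3 the reverse holds.

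Creld2, a stress-inducible protein of the endoplasmic reticulum whose promoter also holds an ERSE, ran against Hspa5 on every array. Signals at P90 were 17063, 11501, 22009 and 13682 on a, b, e and k, against 16000, 17032, 15859 and 10134 at P30. The log2 P90/P30 was 0.093, -0.57, 0.47 and 0.43 on a, b, e and k. Its mean was 0.11 ± 0.48 (SD, n = 4; limma adjusted p = 0.936), and 0.33 without array b (limma adjusted p = 0.257). Sdf2l1, which is found in chaperone complexes of the endoplasmic reticulum and has no match to ERSE in its window, was close to Creld2: -0.097, -0.69, 0.23 and 0.38 on a, b, e and k. Its signals were 3599, 3153, 4890 and 4104 at P90, against 3849, 5096, 4175 and 3153 at P30. The mean of Sdf2l1 was -0.045 ± 0.48 (SD, n = 4; limma adjusted p = 0.978), and 0.17 without array b. Both genes were lowest on the array on which Hspa5, Hsp90b1 and Dnajb9 were highest.

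The means of both disulfide isomerases were close to 0. Pdia4 had signals of 5630, 4305, 4935 and 2815 at P90 on arrays a, b, e and k, against 5079, 4641, 4572 and 2893 at P30. Its log2 P90/P30 was 0.15, -0.11, 0.11 and -0.039 on a, b, e and k, the narrowest spread of the 10 genes. The mean was 0.028 ± 0.12 (SD, n = 4), and the 95% interval of -0.27 to 0.33 (limma adjusted p = 0.978) was also the narrowest; without array b the mean was 0.073. These values are after loess. In the deposited value table Pdia4 was farther from 0, at 0.49, -0.31, 0.20 and 0.14 on a, b, e and k. Pdia6, an isomerase that binds BiP and attenuates IRE1 signalling, had -0.29, 0.0094, -0.65 and 0.61 on a, b, e and k, with a mean of -0.082 ± 0.53 (SD, n = 4; limma adjusted p = 0.958), or -0.11 without array b. Signals of Pdia6 were 23549, 26533, 20021 and 20864 at P90 on those arrays, against 28748, 26360, 31488 and 13714 at P30, among the brightest of the 10 genes. Its second probe had the same signs on all 4 arrays (mean -0.22 ± 0.52). The third and dimmest gave 0.19 on a and -1.14 on b, and differed from the others by up to 1.26 on a single array.

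**Figure D4:**
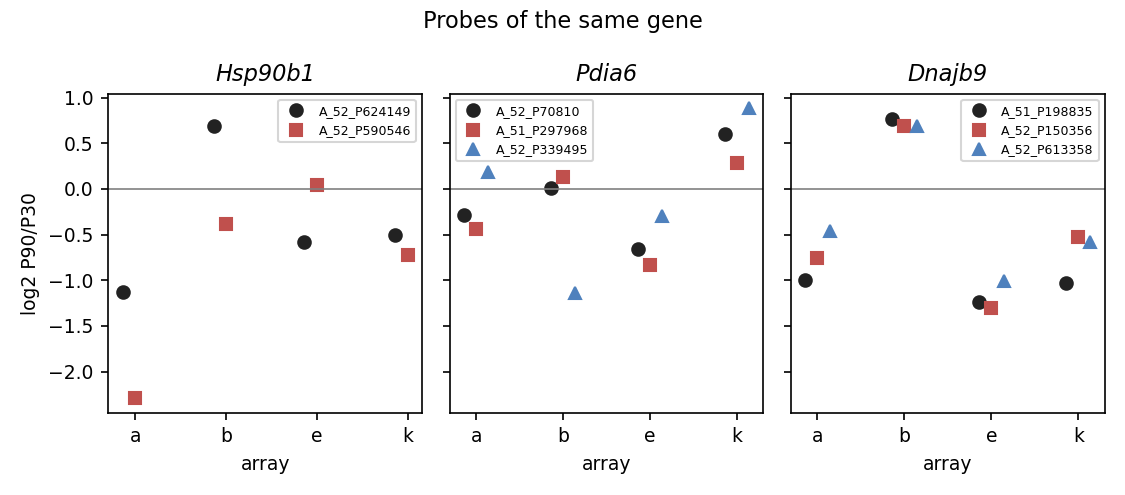
log2 P90/P30 on each array for the probes of the 3 genes that have more than 1, with a symbol for each probe. The 3 probes of Dnajb9 share their sign on every array, the 2 of Hsp90b1 part on b and e, and the dimmest probe of Pdia6 parts from the others on a and b.

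Among the transcription factors, Xbp1, the target of IRE1 and a requirement for plasma cells and secretory epithelium, had the highest mean of the 10 genes over the 4 arrays, but not without array b (0.35, against 0.39 for Ddit3) or with array b turned (0.11, against 0.39 for Creld2). Signals at P90 were 5862, 8492, 4139 and 5046 on a, b, e and k, against 5944, 5440, 4140 and 2378 at P30. The log2 P90/P30 was -0.020, 0.64, -0.00050 and 1.09, so after loess the ages differed on b and k and hardly at all on a and e. The mean was 0.43 ± 0.54 (SD, n = 4), or 1.34-fold, with an interval of -0.13 to 0.98 (limma adjusted p = 0.654). In the deposited value table Xbp1 was at 0.37, 0.40, 0.040 and 1.30 on a, b, e and k, so there a was close to b. The array has a single Xbp1 probe, and splicing was not measured here.

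Ddit3, whose product CHOP promotes cell death under lasting stress, had low signals. Signals at P90 were 822, 467, 611 and 655 on a, b, e and k, against 639, 537, 493 and 465 at P30. Its log2 P90/P30 was 0.36, -0.20, 0.31 and 0.49, above 0 on every array but b. The mean was 0.24 ± 0.31 (SD, n = 4; limma adjusted p = 0.711), and 0.39 without array b (limma adjusted p = 0.169). With median centring the mean of Ddit3 was -0.14. Atf4, the factor that PERK signalling favours and that drives Ddit3, had 0.34, 0.032, -0.44 and 0.47 on a, b, e and k. Signals of Atf4 were 1142, 1027, 752 and 1002 at P90, against 905, 1004, 1024 and 723 at P30. Its mean was 0.099 ± 0.41 (SD, n = 4; limma adjusted p = 0.934), or 0.12 without array b. Atf4 and Ddit3 took opposite signs on e and, with Atf4 close to 0, on b. In the deposited value table both were below 0 on b (Atf4 -0.018, Ddit3 -0.22). Atf4 is regulated largely at translation, which transcript levels do not show.

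The wider pathway was described with 7 lists of genes, of which 119 of 123 were measured and none passed the test in either direction. Of the 119, 7 were higher and 10 lower at an unadjusted limma p below 0.05, where all genes had 2.59% higher and 5.31% lower. On all 4 arrays 9 were above 0 and 6 below. With median centring all 7 list medians were below 0, from -0.22 for cytosolic heat shock to -0.58 for the translocon. Where a gene below is described as being on 1 side of 0 on all arrays, its adjusted p was no lower than 0.617.

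Among 18 other chaperones and folding enzymes the median log2 P90/P30 was -0.00016, with 9 means above 0 and 9 below. Hyou1, the Hsp110-type exchange factor of BiP, was the 1 list gene of the 18 with the same sign throughout: 0.78, 0.37, 0.72 and 0.59 on a, b, e and k, with a mean of 0.62 ± 0.18 (SD, n = 4; limma adjusted p = 0.617). It was thus above 0 on the arrays on which its partner Hspa5 was lowest. The brightest of these genes, Ppib and P4hb, had means of -0.11 ± 0.22 and 0.016 ± 0.40.

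The 14 genes of endoplasmic reticulum-associated degradation had a median of 0.074. Derl3, a channel component that XBP1 induces in secretory cells, gave 0.36, 0.66, 0.71 and 0.48 on a, b, e and k, with a mean of 0.55 ± 0.17 (SD, n = 4; limma adjusted p = 0.617). It was the dimmest gene of this list (mean log2 intensity 7.26, 1 kept probe), though well above background on all 4 arrays at both ages. Sel1l, the adaptor of the HRD1 ligase, gave -0.47, -0.14, -0.45 and -0.51, but the mean of its second probe was 0.22, against -0.39 for the first. Syvn1, which encodes HRD1, and Herpud1 were the brightest and had means of 0.14 ± 0.12 and 0.15 ± 0.26.

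Targets of PERK and ATF4 (18 genes) had a median of -0.048, or -0.023 without the saturated Nupr1. Ppp1r15a, the phosphatase subunit that ends the PERK signal, was above 0 on all arrays with 0.38, 0.33, 0.21 and 0.65 on a, b, e and k (mean 0.39 ± 0.19, SD, n = 4). The amino acid transporter subunit gene Slc3a2 gave 0.72, 0.073, 0.40 and 0.37, although its second probe was below 0 on b. Ddit4 and Asns, the brightest, had means of 0.15 ± 0.62 and -0.072 ± 0.70. The sensors and transducers (17 genes) had a median of -0.013. Eif2s1, the initiation factor subunit that PERK phosphorylates, gave -1.30, -0.40, -0.81 and -0.63 on a, b, e and k, with a mean of -0.79 ± 0.38 (SD, n = 4; limma adjusted p = 0.617) and -0.63 with its second probe. Eif2ak2, a kinase of the same subunit that interferon induces, had a mean of -0.74 ± 0.40. The brightest of that list, Mbtps1 and Creb3l4, were at 0.045 ± 0.27 and 0.085 ± 0.73, but the other probes of Mbtps1 had means of 0.26 and 0.53.

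Genes of the translocon and of N-glycosylation had the lowest of the 7 list medians, at -0.22, with 20 of 24 means below 0, beside 54.4% of all genes. Over its 21 unsaturated genes the median was -0.25, with 19 means below 0, and the medians on single arrays were -0.16 (a), 0.010 (b), -0.43 (e) and -0.27 (k). Srp19 and Srp9, protein subunits of the signal recognition particle, had means of -0.70 ± 0.28 and -0.60 ± 0.33 (SD, n = 4; limma adjusted p = 0.617 for both), and the second probe of Srp9 gave -0.59. The channel subunits Sec61g and Sec61a1 were at -0.33 ± 0.30 and -0.022 ± 0.15, and the other probes of Sec61a1 had means of 0.069 and 0.30. Sec61b, Rpn1 and Rpn2 were saturated in a channel on 3 or more arrays and are given without values.

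Chaperones outside the endoplasmic reticulum were set beside these. Cytosolic heat shock genes (19) had a median of 0.12, with the small heat shock genes Hspb1 at 1.02 ± 0.87 and Hspb8 at 0.90 ± 0.55 above 0 on all arrays. Hspa8 and Hsp90ab1 were at 0.014 ± 0.35 and -0.082 ± 0.55, but their second probes had means of 0.51 and 0.15. Mitochondrial chaperones (9) had a median of -0.074. Hspd1 was below 0 on all arrays with its brightest probe (-2.66, -0.032, -0.91 and -0.64 on a, b, e and k) but at 0.70 on b with its second probe. Hspa9, the mitochondrial counterpart of BiP, was at -0.70 ± 0.54, with -1.20, 0.047, -0.98 and -0.65 on a, b, e and k, and Grpel1 was at -0.061 ± 0.17. Other probes had means of -0.43 for Hspa9 and of -0.092 and 0.17 for Grpel1.

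**Figure D5:**
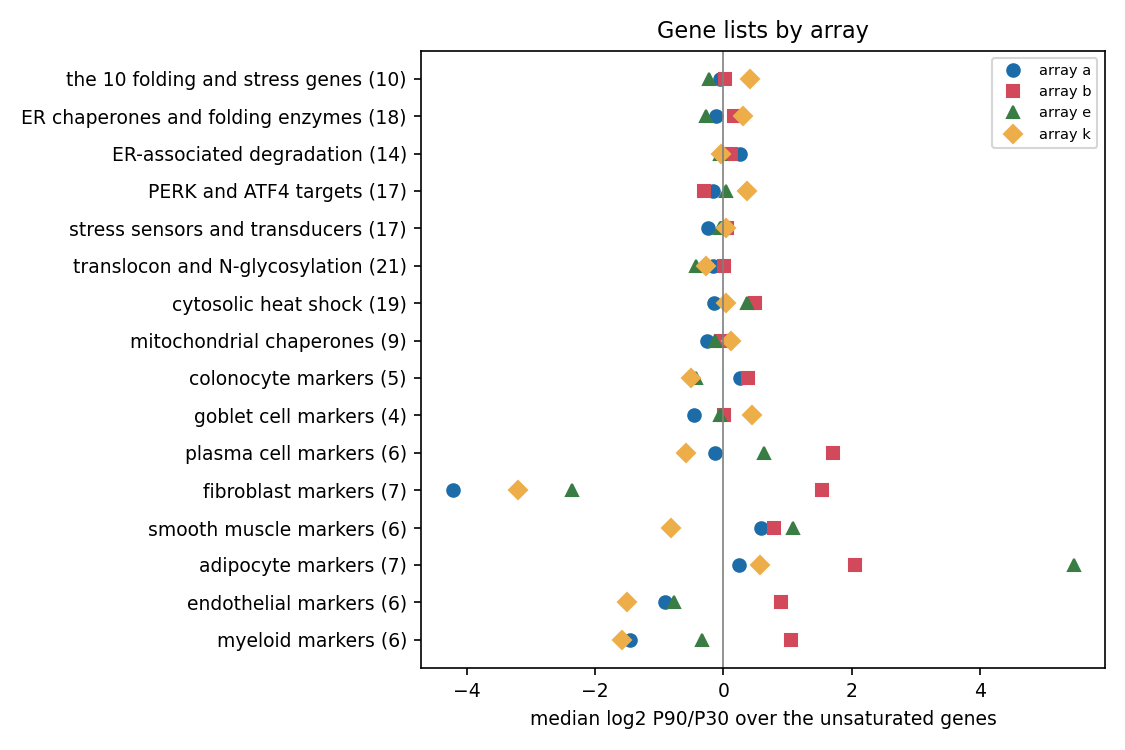
Median log2 P90/P30 of each gene list on each array, over the genes not saturated on 3 or more arrays in a channel, with their number in brackets. The folding and stress lists lie within 0.5 of 0 on all arrays, while fibroblast, endothelial and myeloid markers lie below 0 on a, e and k and above 0 on b.

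Fibroblast, endothelial and myeloid markers had list medians in the combination seen for Hspa5, Dnajb9 and the brighter probe of Hsp90b1, which 19.1% of all genes shared. Plasma cell, smooth muscle and adipocyte markers, given further below, did not have it. The 7 fibroblast markers had medians of -4.23, 1.53, -2.36 and -3.21 on a, b, e and k, and their summed signal was 3781, 29733, 18688 and 2076 at P90, against 70047, 10714, 88567 and 25675 at P30. All 7 were well above background on 3 or more arrays at both ages, and the brightest were Col3a1 (mean -2.45 ± 2.73, with -0.18 at its second probe) and Col1a2 (-2.11 ± 2.53). Endothelial markers (6 of 6 measured) had medians of -0.91, 0.89, -0.77 and -1.51, with summed signals of 947 to 3570 at P90 and 1502 to 6731 at P30. Myeloid markers (6 of 7) had medians of -1.46, 1.05, -0.33 and -1.58, with sums of 1116 to 3726 at P90, against 1292 to 5335 at P30. The endothelial genes Plvap and Emcn had means of -0.58 ± 1.43 and -0.87 ± 1.21, and the complement genes C1qc and C1qa of macrophages had means of -0.71 ± 1.36 and -0.55 ± 1.35 (SD, n = 4). The part of these cells in the values of the 3 chaperone genes was not tested.

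Secretory cells carry much of the folding machinery. Plasma cell markers (6 of 7) had medians of -0.13, 1.71, 0.64 and -0.59 on a, b, e and k, with summed signals of 10846 to 32495 at P90 and 11523 to 17046 at P30. Jchain was at 0.49 ± 2.35 and Sdc1 at 0.23 ± 0.35, and Tnfrsf17 was well above background on 2 arrays at P90, against 4 at P30. Of the goblet cell markers 9 of 10 were measured and 5 were saturated, whose ratios carry no level. The other 4 had medians of -0.46 (a), 0.0062 (b), -0.047 (e) and 0.44 (k) and ran in different directions, with Bcas1 at 0.11 ± 0.38 and Retnlb at -0.78 ± 2.09. All 9 colonocyte markers were well above background at both ages on all 4 arrays, and 4 were saturated. The other 5 had medians of 0.25 (a), 0.38 (b), -0.42 (e) and -0.51 (k), with Epcam at -0.34 ± 0.36 and Cdhr5 at 0.37 ± 0.27.

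The remaining lists covered tissue that could be carried over and the handling of samples. Adipocyte markers (7 of 8) had medians of 0.24, 2.04, 5.46 and 0.57 on a, b, e and k, with Fabp4 at 1.30 ± 2.53 and Cidec at 0.77 ± 1.74. All 7 means were above 0, beside 45.6% of all genes. Of the 7, 5 were above 0 on all 4 arrays, beside 6.14% of all genes, while Fabp4 and Cidec had mixed signs. Smooth muscle markers (6 of 6) had medians of 0.59, 0.79, 1.08 and -0.82, with Acta2 at -0.0031 ± 0.69 and Tagln at 0.16 ± 0.95. Other probes of Acta2 had means of 0.13 and -0.53. Pancreatic acinar markers were dim (4 of 7 measured, median -0.054, Ctrb1 at 0.016 ± 0.39 and Cel at 0.12 ± 0.60), and handling-sensitive immediate early genes had a median of 0.014 (7 of 7, Junb at -0.15 ± 0.61 and Ier2 at 0.26 ± 0.25).

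The genes nearest to the median of the 10 on each array, by the root mean square difference over the 4 arrays, were Cox7a2l (0.0448), Elp2 (0.0472), Carmil3 (0.0506), Slc9a7 (0.0601) and Ccna1 (0.0608). They were picked for that closeness out of all genes. The distances of the 10 genes from their own median, which were not picked so, were 0.229 for Atf4 and 0.264 for Pdia6 at the low end and 1.06 for Dnajb9 and 1.19 for Hspa5 at the high end.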

How the data were processed

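The deposited scanner files hold spot intensity as the median brightness of each spot and its local background, before normalization, per the file headers. Their processed signals are background-subtracted and dye-scaled, and the deposited log10 ratio divides the processed Cy5 signal by that of Cy3, per the file headers. The deposited value table of the series was found to hold log2 P90/P30: it matched the deposited log ratio within 0.01 for 80.0% (a), 87.0% (b), 86.5% (e) and 80.5% (k) of probes. Its column medians were 0.21 (a), -0.17 (b), 0.049 (e) and 0.17 (k); how it was centred is not given in the sources used here. Marks for saturation, outliers and background, which have no unit (other), were used as deposited. Agilent Feature Extraction made these files; the file headers give version 10.5.1.1 and the submitters' processing notes 8.5.1.1.

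Here, background was corrected with normexp (offset 50) on median signals, as the files used hold no mean signal. Loess (span 0.3, control spots at zero weight) followed, in limma 3.58.1 under R 4.3.3. Of the gene spots, 127 to 156 on an array were marked as outliers and dropped, while saturated ones stayed. Ratios were turned to log2 P90 over P30. Signals per channel are after loess and Aquantile, and include the offset. Probes well above background in 1 channel on at least 3 arrays were kept (27065, or 65.7%), spots of a probe were averaged, and the brightest probe stood for its gene. RefSeq accessions (GRCm38.p6) named 25097 probes and left 16077 unnamed. Gene spots well above background were 55.6% to 69.3% at P90 and 64.6% to 71.0% at P30. Each gene's mean was tested with lmFit and eBayes, adjusted over all genes, with a threshold of 0.05. The fit was tested on simulated data. The 4 arrays share 1 slide, so no batch could be tested.

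The 10 genes, the lists and the tests were chosen with earlier results of these data known. Named list genes are the 2 brightest unsaturated ones of each list and, in pathway lists, the 2 with the largest absolute mean among those of 1 sign on all arrays. Nearest genes are the 5 with the smallest root mean square difference from the members' median. Alternatives covered background, starting signal, normalization, filter, saturation, probe choice, spread model, array weights, dye, the direction of arrays b and e, and each array left out.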

Additional observations from a re-analysis of the deposited data

Results flagged for a closer look

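Of the 15 probes, 1 had an array far from the other 3. The brightest Dnajb9 probe was at 0.77 on array b, against -0.99, -1.24 and -1.03 on a, e and k, and the gap to the nearest of them took 0.876 of the whole range, where 0.829 is the 95% limit for 4 values. Chance alone passes that limit for about 1 in 20 sets of values. The other two Dnajb9 probes were also above 0 on b (0.69 each) and below 0 on a, e and k. The cause was not tested.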

How the results depend on the processing

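No member gene or probe was called under any of the 20 alternatives, and over all genes 2 were called with the smaller normexp offset, the processed signals, the deposited log ratio and the value table, against 0 otherwise. Hspa5 (-1.27 to -0.018), Hsp90b1 (-0.74 to -0.089), Dnajb9 (-1.09 to -0.0032) and Xbp1 (0.045 to 0.58) kept their sign in all 20. The filter, saturation and spread-model settings left these means as they were in the main fit. The value table repeated the deposited log ratio, so these settings add no separate check of the sign. The values nearest 0 of Hspa5 and Dnajb9 came with array e read against its labelled dyes. In that setting the array's sign is turned by construction. With array b turned, the lowest adjusted p of the 10 was that of Dnajb9 (limma, 0.0671). In that setting 4977 of 20834 genes had an unadjusted limma p below 0.05, against 1646 with b as labelled, and none was called.

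Median centring in place of loess put the median of all genes at -0.21 and moved those of the 10 genes to -0.37, the other folding enzymes to -0.31, degradation to -0.29, PERK and ATF4 targets to -0.40, sensors to -0.34, translocon to -0.58, cytosolic heat shock to -0.22 and mitochondrial chaperones to -0.45. In that setting Ddit3 was at -0.14, Atf4 at -0.30, Creld2 at -0.22 and Pdia4 at -0.34, against means above 0 otherwise given. With array e unturned Creld2 was at -0.13, Pdia4 at -0.027, Pdia6 at 0.25 and the translocon median at 0.023. Atf4 was at -0.082 with a dye term. Pdia6 was at 0.078 with the deposited log ratio and with the value table (0.078). Sdf2l1 was at 0.026 with processed signals, 0.052 with the deposited log ratio and the value table, 0.11 with array weights, 0.046 with a dye term and 0.30 with array b turned. With 1 array left out, Pdia4 ran from -0.012 (without a) to 0.073, Sdf2l1 from -0.19 to 0.17 (without b), Creld2 from -0.014 (without e; -0.00030 without k) to 0.33, Pdia6 from -0.31 to 0.11 (without e), Atf4 from -0.026 (without k) to 0.28 and the median of the 10 from -0.11 to 0.097. Causes of these sign changes were not tested.

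With 4 pairs, the median 95% interval of a gene reached 0.42 to either side on the log2 scale before any adjustment over genes, and larger differences, such as 0.62 ± 0.18 for Hyou1, were not called. Each array's ratio pairs a P90 with a P30 RNA, so the test is itself a paired one.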
